A study of Rattus norvegicus with 6 samples.

Results

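The miRNAs described here are the mature products of the miR-23, miR-24 and miR-27 hairpins in rat testis. They were taken by name, as every entry of the deposited table called rno-miR-23a, 23b, 24, 27a or 27b with any hairpin or arm suffix. The rule found 10 of the 721 entries of the table, and the species prefix is dropped from their names below. The testes came from 6 adult Sprague-Dawley rats, 3 labelled as having STZ-induced diabetes and 3 labelled normal, and small RNA was sequenced from each. Diabetic testes were taken after 8 weeks of diabetes. By the study's methods the diabetic rats were fed a high-fat diet and then injected with streptozotocin (STZ), which kills the insulin-producing beta cells of the pancreas. Control rats were injected with citrate buffer, and whether they also had the high-fat diet was not stated. If they did not, diabetes and diet cannot be told apart in the comparison.

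A miRNA is a short RNA cut from a hairpin precursor, and it represses the mRNAs to which it pairs. Pairing rests mostly on the seed, bases 2 to 8 from the 5′ end. Each hairpin can yield a product from its 5′ arm (5p) and one from its 3′ arm (3p), and usually a single arm is kept. miR-23, miR-27 and miR-24 lie side by side in 2 genomic clusters, so that each has a paralog in the other cluster. They are known for roles in blood vessel growth, in fat and muscle cell differentiation and in glutamine metabolism, and miR-27 is a known repressor of the adipogenic receptor PPARγ.

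In the RefSeq annotation of assembly GRCr8, Mir23b, Mir27b and Mir24-1 lie on the minus strand at chr17:1818669-1819482, a span of 814 bases. This span is inside that of the protein-coding gene Aopep, an aminopeptidase, and Mir24-1 also overlaps the end of Fancc and, on the opposite strand, Mir3074. Mir23a, Mir27a and Mir24-2 lie on the minus strand at chr19:40859455-40859843, a span of 389 bases in which no other listed gene lies. The strand and exons of Aopep were not used here. These positions come from RefSeq, since the deposited table names miRNAs without positions.

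All 10 members matched a RefSeq mature sequence. They are printed 5′ to 3′ with the seed in capitals, because which members share a seed, and how little the paralogs differ, decides how their values can be read. The 3p products of the clusters were the following.
miR-23a-3p: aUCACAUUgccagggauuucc
miR-23b-3p: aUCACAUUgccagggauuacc
miR-27a-3p: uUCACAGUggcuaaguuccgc
miR-27b-3p: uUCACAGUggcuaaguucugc
miR-24-3p: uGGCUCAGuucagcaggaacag

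The 5p products were the following.
miR-24-1-5p: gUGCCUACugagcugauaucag
miR-24-2-5p: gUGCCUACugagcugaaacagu
miR-27a-5p: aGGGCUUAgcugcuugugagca
miR-27b-5p: aGAGCUUAgcugauuggugaacag
miR-23b-5p: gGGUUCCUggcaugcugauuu

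The paralogous 3p products carry the same seed. Counted from 1 at the 5′ end, miR-23a-3p and miR-23b-3p differ at a single position, U19A, of 21 bases. miR-27a-3p and miR-27b-3p likewise differ only by C19U. miR-24-3p has the same sequence in both hairpins, so its reads cannot be assigned to a cluster. The 5p products of the miR-24 hairpins share their seed and differ only from position 17 on, by A17U, C19U, A20C, G21A and U22G. miR-27a-5p and miR-27b-5p differ within the seed, by G3A. Among 693 distinct RefSeq mature names, 0 outside these members carry any of these 7 seeds. How reads matching both paralogs were shared between them was not stated in the sources used here, and a read that ends before position 19 fits either paralog. The levels within a pair are therefore uncertain, and sums over a pair are less so.

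Levels are given as CPM, in which each library's miRNA reads are scaled to the same total. Comparisons between different miRNAs are therefore of reads, and how reads relate to numbers of molecules for each sequence was not tested. The libraries held from 305476 to 549446 miRNA reads, so that a single read stood for 1.82 to 3.27 CPM. All 6 counted as separate samples, since pairs within a group differed by far more than counting noise (chi-square over degrees of freedom of 6.47 or more). The tissue label was checked against germ-cell miRNAs of the miR-34 and miR-449 families. Their 6 listed members summed to 311912 to 333840 CPM in diabetic testes and 306978 to 355976 CPM in normal testes. Most of this was miR-34c-5p, with means of 286986 and 295956 CPM. None of the listed members was at 0 in every library, but miR-449c-5p was at most 1.9 CPM. Testis is a mixed tissue, and fewer cells of a type and less RNA per cell cannot be told apart in such samples.

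miR-27b-3p was by far the most abundant member, and the 3p arm dominated in the miR-27 and miR-23b hairpins. miR-24-3p likewise exceeded both miR-24 5p products together. miR-27b-3p took 65.6% of the 36246 member reads and ranked 23rd by mean CPM in the whole table. miR-24-3p ranked 49th and miR-27a-3p 72nd, whereas miR-23b-5p ranked 584th with 4 reads in all. The order of mean levels was miR-27b-3p, miR-24-3p, miR-27a-3p, miR-23a-3p, miR-24-2-5p, miR-23b-3p, miR-27a-5p, miR-24-1-5p, miR-27b-5p and miR-23b-5p. Neighbours in the order from miR-27b-3p to miR-23a-3p had ranges over libraries that did not overlap. The ranges of miR-23a-3p and miR-24-2-5p overlapped, as did those of miR-24-2-5p and miR-23b-3p. Among the scarce 5p products the ranges overlapped from miR-27a-5p to miR-24-1-5p and from there to miR-27b-5p.

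**Figure D1:**
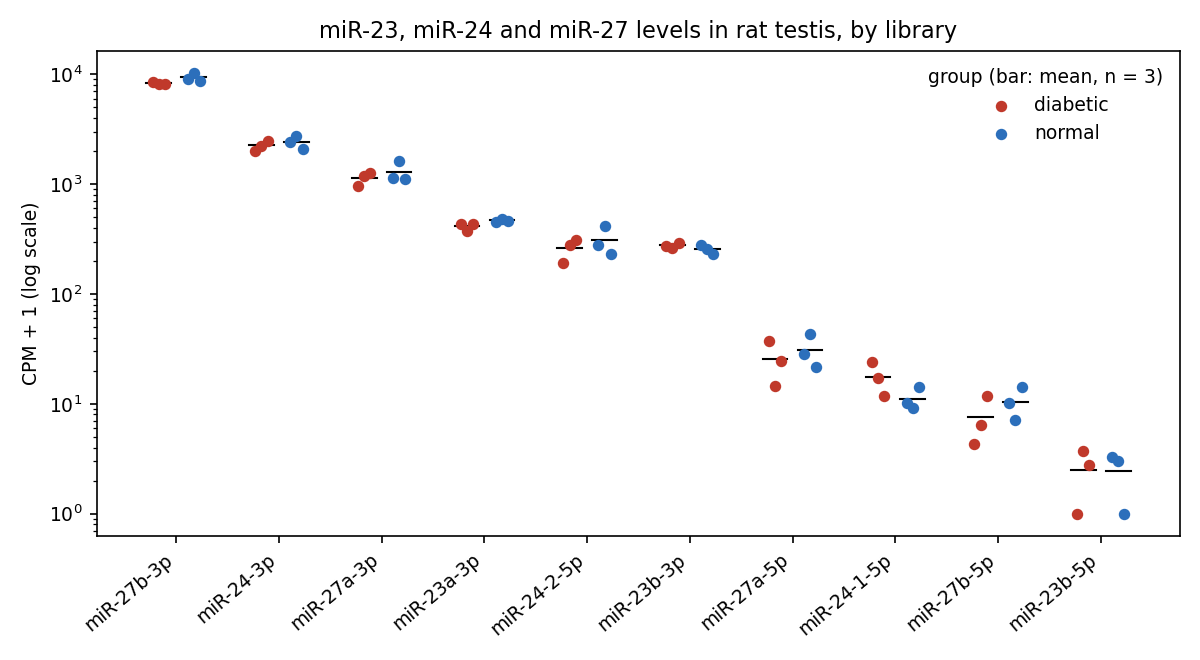
Each point is the level of a member in a library, as CPM + 1 on a log axis, with diabetic libraries in red, normal libraries in blue and a bar at the mean of each group (n = 3). Levels run from 8106.5 CPM or more for miR-27b-3p to between 0 and 2.7 CPM for miR-23b-5p, and for 8 of the 10 members the groups overlap.

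Members encoded in the same cluster differed widely in level. In the chromosome 17 cluster, miR-27b-3p was 28.2 to 40.6 times as abundant as miR-23b-3p across libraries. In the chromosome 19 cluster, miR-27a-3p was only 2.20 to 3.38 times as abundant as miR-23a-3p. The paralogs also did not favour the same cluster. The chromosome 17 product miR-27b-3p exceeded miR-27a-3p in every library, whereas the chromosome 19 products miR-23a-3p and miR-24-2-5p exceeded miR-23b-3p and miR-24-1-5p in every library.

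The comparison of diabetic with normal testes asked which members changed with diabetes, and 0 of the 10 had an adjusted p under 0.05 in limma with Benjamini-Hochberg adjustment over all 578 miRNAs tested. The share called among all miRNAs was 0%. The adjusted p-values of the members ran from 0.620 to 0.990. At an unadjusted p under 0.05 the members again numbered 0, against 8.82% of all miRNAs tested, and the smallest unadjusted p in limma was 0.0740, for miR-27b-3p. Of the 10 members 7 were lower and 3 higher in diabetic libraries, with a median log2 change of -0.18. The median over all tested miRNAs was 0.0046, with 49.5% of them lower. All 10 passed the filter of at least 1 CPM in at least 3 libraries, but only 6 held at least 10 reads in every library.

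miR-27b-3p and miR-23a-3p were the members whose groups did not overlap, 2 of 10, against 14.9% of all tested miRNAs. Both were lower in diabetic libraries, as were 6.92% of all. Among the 6 members with at least 10 reads in every library these 2 compare with 18.3% of the 257 miRNAs at that depth, and with 7.78% for the lower direction. With so few members these counts do not set them apart from the background. Both stayed apart between the groups after scaling with TMM, DESeq2 size factors, upper-quartile factors or with miR-34c-5p, the most abundant miRNA of the table, left out of the total.

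miR-27b-3p stood at 8468.8, 8106.5 and 8201 CPM in diabetic replicates 1, 2 and 3 and at 9056.8, 10308.7 and 8673.3 CPM in normal replicates 1, 2 and 3. Every diabetic library was below every normal library, and normal replicate 2 was well above the rest. The means were 8259 ± 188 CPM in diabetic testes and 9346 ± 855 CPM in normal testes (± SD, n = 3 per group), a ratio of 0.884. The difference on the log2 scale was -0.17 ± 0.09 (SE), its 95% interval ran from -0.37 to 0.02, and limma gave an adjusted p of 0.620. The exact two-sided permutation test gave p = 0.1, the smallest that 3 against 3 allows. Without normal replicate 2 the difference was -0.10. In TMM-scaled values the log2 change was -0.23, and unadjusted p in limma was 0.0191 while adjusted p was 0.421. In 7 of 17 alternatives the unadjusted p was under 0.05, but these all draw on the same libraries and are not separate evidence. In limma the unadjusted p was 0.312 without the trend and 0.274 without normal replicate 2. The adjusted p ran from 0.344 to 0.836 over all 17.

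miR-23a-3p, a known repressor of glutaminase, stood at 435.4, 370.9 and 431.3 CPM in the diabetic replicates and at 453.3, 479.1 and 464 CPM in the normal ones. The normal libraries lay close together and above all diabetic libraries, with diabetic replicate 2 the lowest. The means were 413 ± 36.1 and 465 ± 13.0 CPM (± SD, n = 3 per group), a ratio of 0.886. The difference on the log2 scale was -0.18 ± 0.15 (SE), its 95% interval ran from -0.49 to 0.13, and limma gave an adjusted p of 0.795 (permutation test over libraries, exact p = 0.1). Without diabetic replicate 2 it was -0.10. From 133 to 246 reads stood behind each value, and the spread within groups of 6.50% was no larger than the 7.34% that counting alone gives.

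miR-23b-3p, its paralog in the other cluster, stood at 275, 260.7 and 291.2 CPM in the diabetic replicates and at 276.5, 253.8 and 232 CPM in the normal ones. The groups overlapped through normal replicate 1, with a mean of 276 ± 15.3 CPM in diabetic testes and 254 ± 22.3 CPM in normal testes (± SD, n = 3 per group). The difference on the log2 scale was 0.12 ± 0.17 (SE), its 95% interval ran from -0.24 to 0.48, and limma gave an adjusted p of 0.831 (permutation test over libraries, exact p = 0.3). Without normal replicate 3 it was 0.0556, and with upper-quartile factors 0.0124. miR-23b-3p was the only one of the 6 better-covered members with a higher diabetic mean.

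miR-27a-3p stood at 955.9, 1185.3 and 1257.6 CPM in the diabetic replicates and at 1144.6, 1620 and 1109.2 CPM in the normal ones. The groups overlapped widely, and normal replicate 2 alone exceeded the rest. The difference on the log2 scale was -0.18 ± 0.16 (SE), its 95% interval ran from -0.51 to 0.15, and limma gave an adjusted p of 0.795 (permutation test over libraries, exact p = 0.6). Without normal replicate 2 it was -0.0019.

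miR-24-3p, made from both clusters and known as a regulator of cell cycle genes, stood at 2019.8, 2236.3 and 2489.8 CPM in the diabetic replicates and at 2404.7, 2736.5 and 2090 CPM in the normal ones. Its groups overlapped, and diabetic replicate 1 was the lowest library. The difference on the log2 scale was -0.10 ± 0.12 (SE), its 95% interval ran from -0.36 to 0.16, and limma gave an adjusted p of 0.808 (permutation test over libraries, exact p = 0.6). Without normal replicate 2 it was -0.00089.

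miR-24-2-5p, the opposite arm of the chromosome 19 hairpin, stood at 189.9, 276.8 and 309.4 CPM in the diabetic replicates and at 276.5, 416.2 and 232 CPM in the normal ones. The groups overlapped, with diabetic replicate 1 lowest and normal replicate 2 highest. The difference on the log2 scale was -0.24 ± 0.23 (SE), its 95% interval ran from -0.74 to 0.26, and limma gave an adjusted p of 0.795 (permutation test over libraries, exact p = 0.6). Without normal replicate 2 it was 0.00059. Normal replicate 2 was the highest library for 6 of the 10 members.

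**Figure D2:**
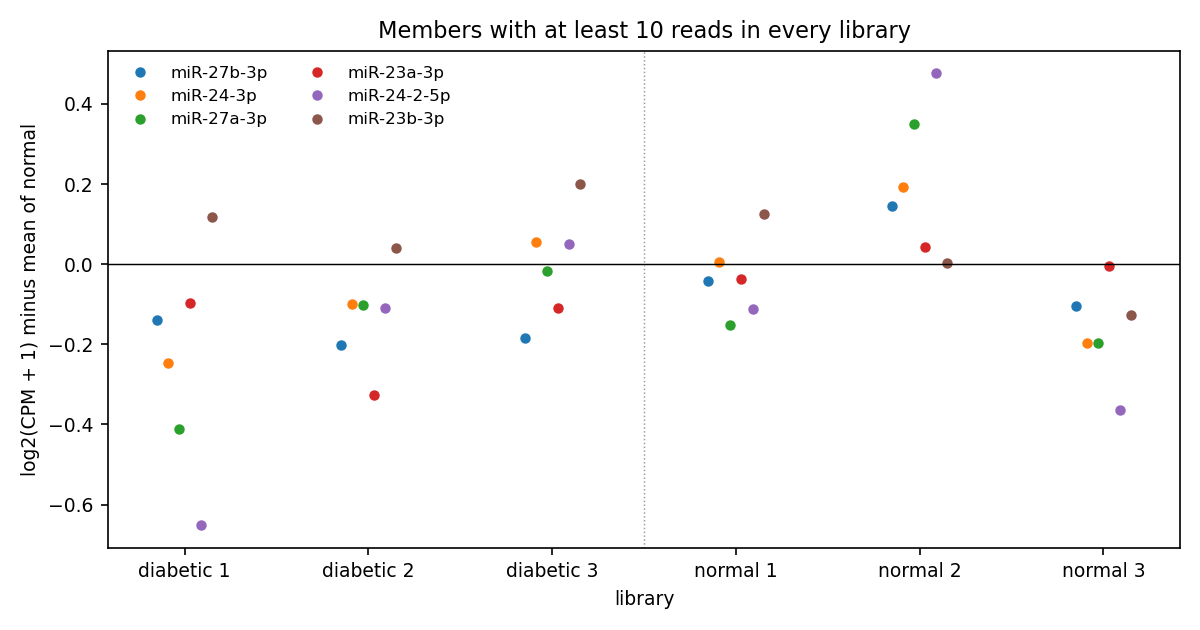
The vertical axis is log2(CPM + 1) of a member minus its mean over the normal libraries, and the horizontal axis is the library, for the 6 members with at least 10 reads in every library. miR-27b-3p and miR-23a-3p lie lower in all diabetic libraries than in any normal one, while normal replicate 2 lifts miR-27a-3p, miR-24-3p and miR-24-2-5p.

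The other 4 members, all 5p products, rested on few reads. miR-27a-5p had 11, 5 and 13 reads in the diabetic replicates and 12, 21 and 11 in the normal ones (adjusted p = 0.831 by limma). miR-24-1-5p had 7, 6 and 6 diabetic reads where the normal libraries had 4, 4 and 7 (adjusted p = 0.795 by limma). For miR-27b-5p the diabetic libraries held 1, 2 and 6 reads, the normal ones 4, 3 and 7 (adjusted p = 0.808 by limma). For none of these did the groups separate, and the spread within groups was 42.1%, 31.8% and 50.1% of the mean. Counting alone gives 31.35%, 43.2% and 63.2%, so only the spread of miR-27a-5p was larger than that.

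miR-23b-5p had 0, 1 and 1 reads in the diabetic and 1, 1 and 0 in the normal replicates, so no fold is given for it. A count of 0 allows up to 3 reads, or 9.82 CPM in diabetic replicate 1 and 5.66 CPM in normal replicate 3. This limit covers counting error only. The interval of the log2 change of miR-24-1-5p ran from -0.65 to 1.91, so anything from 0.639 times to 3.76 times the normal level lay within it at this depth. The antisense RNA miR-3074 shares 20 bases with miR-24-1-5p on the opposite strand, and it held 2, 0 and 3 reads in the diabetic replicates, with 4, 3 and 1 in the normal ones. Whether counting used strand was not stated, so these scarce reads are uncertain.

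**Figure D3:**
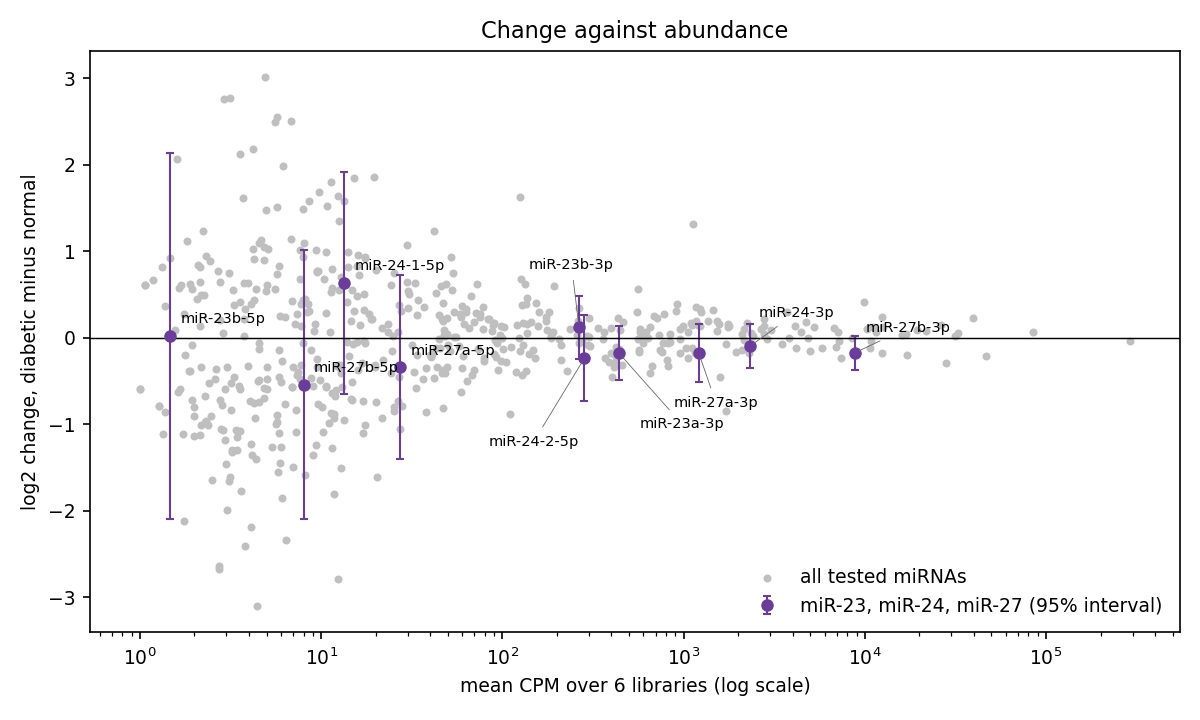
Each grey point is one of the 578 tested miRNAs, with its mean CPM over the 6 libraries on a log axis and its log2 change, diabetic minus normal, on the log2(CPM + 1) scale. The 10 members are purple with 95% intervals, which all cross 0 and widen from miR-27b-3p to the 5p products with few reads.

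Members with a shared seed were also summed, which does not depend on how reads were split between near-identical paralogs if each read was counted once. If reads matching both were counted for each or dropped, the sums would change too. The miR-27 seed UCACAGU took 0.942%, 0.929% and 0.946% of miRNA reads in the diabetic replicates and 1.02%, 1.19% and 0.978% in the normal ones. Its diabetic libraries were all lower, with means of 0.939% ± 0.00882 and 1.06% ± 0.114 (± SD, n = 3 per group). The miR-24-3p seed GGCUCAG took 0.225% ± 0.0235 and 0.241% ± 0.0323, and its groups overlapped. The miR-23 seed UCACAUU took 0.0688% ± 0.00493 and 0.0720% ± 0.00204, and its groups overlapped too. The 10 members together took 1.26% ± 0.0341 of diabetic and 1.41% ± 0.157 of normal reads (± SD, n = 3 per group), again with overlap. Normal replicate 2 carried much of these differences. Without it the diabetic minus normal difference went from -0.125 to -0.0600 percentage points for UCACAGU and from -0.149 to -0.0618 for all members, and that of GGCUCAG turned from -0.0162 to 0.000123. These sums are given without a test.

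Ratios between the clusters were taken within each library, where they do not depend on scaling. The log2 ratios had 1 CPM added to each value first, so those of scarce members depend on it somewhat. With 0.1 CPM added instead, the log2 difference for miR-24-1-5p to miR-24-2-5p was 0.92 in place of 0.87. The ratio of miR-23b-3p to miR-23a-3p was 0.632, 0.703 and 0.675 in the diabetic replicates and 0.610, 0.530 and 0.500 in the normal ones. All diabetic libraries were higher, by a narrow margin over normal replicate 1. The log2 ratio was higher in diabetic libraries by 0.30 ± 0.10 (SE). The exact permutation p was 0.1, the smallest possible, and it was 0.8 after Benjamini-Hochberg adjustment over the 8 ratios examined. The higher ratio came with a lower miR-23a-3p and a higher miR-23b-3p mean, neither of which passed its own test.

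The counting intervals of this pair overlapped between all libraries. miR-23b-3p made up 38.7% of the pair's reads in diabetic replicate 1, with a 95% Wilson interval from 32.5% to 45.3%, and 37.9% in normal replicate 1, with an interval from 32.8% to 43.3%. The means were 40.1% ± 1.30 in diabetic testes and 35.3% ± 2.35 in normal testes (± SD, n = 3 per group). Such intervals treat reads as independent molecules, which was not stated.

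The ratio of miR-27b-3p to miR-27a-3p was 8.86, 6.84 and 6.52 in the diabetic replicates and 7.91, 6.36 and 7.82 in the normal ones. The libraries mixed, and the log2 ratio differed by 0.0016 ± 0.17 (SE; exact permutation p = 1). Thus miR-27b-3p made up 87.9% ± 1.69 of its pair's reads in diabetic testes and 88.0% ± 1.33 in normal testes (± SD, n = 3 per group). miR-24-1-5p made up 6.56% ± 3.79 and 3.49% ± 1.76 of its pair, on 4 to 7 reads a library, and its log2 ratio to miR-24-2-5p differed by 0.87 ± 0.66 (SE; exact permutation p = 0.2; adjusted over the ratios p = 0.8). Without diabetic replicate 1 this difference was 0.41, and leaving out other single libraries gave up to 1.27. The ratio of miR-27b-5p to miR-27a-5p differed by -0.21 ± 0.88 in log2 units (SE; exact permutation p = 0.7).

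**Figure D4:**
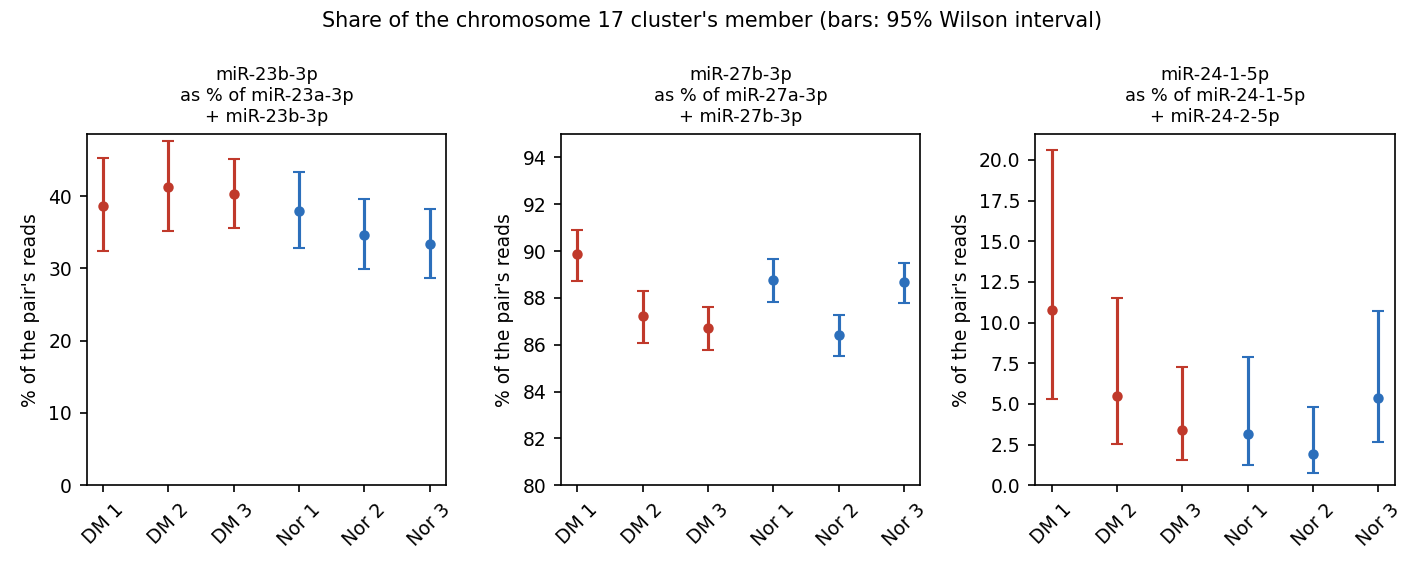
Each point is the share, in percent, of a pair's reads held by the member from chromosome 17 in a library, with diabetic libraries (DM) in red, normal libraries (Nor) in blue and bars for the 95% Wilson interval. The miR-23b-3p share is 38.7% to 41.3% in diabetic and 33.3% to 37.9% in normal libraries, with intervals that overlap. The axis of the miR-27 panel does not start at 0, and its shares, 86.4% to 89.9%, mix between the groups, and the miR-24 5p panel rests on few reads.

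Within the chromosome 17 cluster, miR-27b-3p was 30.8, 31.1 and 28.2 times as abundant as miR-23b-3p in the diabetic replicates and 32.8, 40.6 and 37.4 times in the normal ones. All diabetic libraries were lower, although both miRNAs come from neighbouring hairpins. In the chromosome 19 cluster the ratio of miR-27a-3p to miR-23a-3p was 2.77 ± 0.516 in diabetic testes and 2.77 ± 0.537 in normal testes (± SD, n = 3 per group). These ratios were not part of the tested set and are given as values.

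In the arm ratios of miR-24, miR-27a and miR-27b the groups overlapped. miR-24-3p was 8.30 ± 1.03 times as abundant as the sum of both miR-24 5p products in diabetic testes and 7.80 ± 1.17 times in normal testes (± SD, n = 3 per group), and their log2 ratio differed by 0.09 ± 0.16 (SE; exact permutation p = 0.6). miR-27a-3p was 56.0 ± 31.1 and 44.6 ± 8.07 times as abundant as miR-27a-5p (exact permutation p = 0.8 on n = 3 each). miR-27b-3p was at least 657 times as abundant as miR-27b-5p in every library (exact permutation p = 0.6). miR-23b-3p held 84 to 160 reads where miR-23b-5p held 0 or 1, too few for a comparison of its arms between the groups. The naming rule found no miR-23a-5p entry, so the arms of that hairpin were not compared.

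The pattern of miR-27b-3p over the 6 libraries was set beside those of 221 other known miRNAs that held 10 or more reads in each library. The measure of likeness was the root mean square difference between centred log2(CPM + 1) values. It takes in the size of the changes as well as their order, so a nearly level miRNA can also score low. let-7c-5p was nearest at 0.0457, followed by let-7b-5p at 0.0614 and miR-125b-5p at 0.0675, against a median of 0.222 over all 221. let-7c-5p stood at 10076.1, 10442.2 and 9991.9 CPM in the diabetic and at 11021.9, 12020.1 and 10295.5 CPM in the normal replicates. let-7b-5p stood at 3417.6, 3405.5 and 3443.5 CPM in the diabetic and at 3433.7, 3897.7 and 3468.9 CPM in the normal replicates. It was thus nearly level apart from normal replicate 2. Of the members, miR-23a-3p at 0.0854 was the nearest to miR-27b-3p, and only 4 of the 221 were nearer. miR-24-3p stood at 0.118, miR-27a-3p at 0.171 and miR-24-2-5p at 0.290. miR-23b-3p from the same cluster stood at 0.178, with 65 nearer. Counting alone gives a spread of 7.34% for miR-23a-3p and 9.38% for miR-23b-3p, and this error enters their distances.

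A list of 12 miRNAs linked to blood vessels was examined because the clusters are known in endothelium. In limma 0 of the 12 had an adjusted p under 0.05, 7 were higher and 5 lower in diabetic libraries, and their median log2 change was 0.04. The unadjusted p was under 0.05 for 2 of them, both higher, against 8.82% of all miRNAs tested, and a count of 2 does not set the list apart. miR-126a-3p, the defining endothelial miRNA, was at 11211 ± 1153 CPM in diabetic testes and 8471 ± 1329 CPM in normal testes (± SD, n = 3 per group), which is 0.41 ± 0.11 (SE) apart on the log2 scale (adjusted p = 0.348 by limma). miR-221-3p was at 1374 ± 135 and 1114 ± 30.6 CPM, which is 0.30 ± 0.12 (SE) apart on the log2 scale (adjusted p = 0.406 by limma). Both endothelial entries summed to 11722 to 13783 CPM in diabetic testes and 8662 to 11086 CPM in normal testes, with neither at 0. Most of this sum is miR-126a-3p. The other entry, miR-126a-5p, was at 1291 ± 59.7 and 1181 ± 132 CPM, and its groups overlapped. It was 0.13 ± 0.12 (SE) apart on the log2 scale (adjusted p = 0.795 by limma). Between the group means miR-126a-3p was higher in diabetic testes and miR-27b-3p lower, neither past its adjusted test. Among the normal libraries replicate 2 was the highest and replicate 3 the lowest for both. Among the diabetic libraries replicate 2 was the lowest for both, but miR-126a-3p was highest in replicate 3 and miR-27b-3p in replicate 1. The other endothelial entry, miR-126a-5p, was instead highest in replicate 3 among the normal libraries, at 1324.2 CPM. Its highest library of all was diabetic replicate 2, at 1360 CPM. Orders over so few libraries are given as values only. The part of endothelial cells in the values of the members was not tested.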

How the data were processed

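The members and the related lists were chosen with earlier results of these data known. The authors, as their methods state, ran single-end small RNA sequencing, removed primers and adaptors, counted small RNAs, annotated known miRNAs with miRBase and expressed them as CPM. The submitters' processing notes name Bowtie 0.12.2, HISAT2 2.0, StringTie 1.3.0 and the mouse build mm8, without saying what each was used for. The extraction text of the labels describes a poly(A) library, whereas the series design and the methods describe miRNA sequencing, which was followed. The deposited values are CPM rounded to 1 decimal by the authors, under headings that call them TPM. CPM is relative, so all values shift when an abundant miRNA changes.

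Whole reads were recovered from the CPM steps for 100% of values, to within 0.05 CPM. A level of 3 reads was taken as the floor. The main test was limma 3.58.1 (eBayes with trend) in R 4.3.3 on log2(CPM + 1), over the 578 of 721 miRNAs that reached 1 CPM in 3 or more libraries, with Benjamini-Hochberg adjustment over all of them. The fold changes are on this scale, which understates changes of scarce miRNAs. Ratios were compared with exact two-sided permutation tests (scipy 1.17.1). Every entry found by the naming rule is named. Nothing stated that replicates were paired, so the groups were compared as unpaired samples. The limma p-values rest on the spread within groups, adjusted toward a trend fitted over all tested miRNAs. Alternatives were another pseudocount, no trend, no filter or a stricter one, other scalings, edgeR 4.0.16 and DESeq2 1.42.0 on the recovered reads, a replicate block and leaving out each library. Sequences and gene positions are from RefSeq, assembly GRCr8.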

Additional observations from a re-analysis of the deposited data

How the results depend on the processing

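In all 17 alternatives 0 members had an adjusted p under 0.05. The 0 miRNAs of the whole table with an adjusted p under 0.05 in limma (51 at an unadjusted p under 0.05) became 8 without the trend and 2 with edgeR's quasi-likelihood test, and 1 without a filter, with 10 or more reads in every library, with TMM or upper-quartile factors or DESeq2's Wald test. Leaving out 1 library gave from 0 to 1. None of these calls was a member, and the cause of the changes was not tested. With the replicate block 1 miRNA was called and the log2 change of miR-27b-3p was -0.17 (limma adjusted p = 0.698). Same-numbered libraries deviated with correlations of 0.0065, -0.0688 and -0.0894 over 257 miRNAs. Those with different numbers ran from -0.11 to 0.20. The values thus gave no sign of pairing by number, but with 3 libraries per group they cannot exclude it.

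Over other settings 105 of 106 member values kept their direction, and miR-23b-5p turned to -0.0417 with upper-quartile factors, which moved the median of all miRNAs by -0.11. Leaving out 1 library kept the direction in 55 of 60. That of miR-24-2-5p turned without normal replicate 2 and that of miR-27a-5p without diabetic replicate 2. The log2 change then ranged from -0.42 to 0.00059 for miR-24-2-5p, from -0.66 to 0.0168 for miR-27a-5p and from -0.53 to 0.58 for miR-23b-5p. Without 1 library the log2 ratio differences ranged from -0.0366 to 0.16 for the miR-24 arms, -0.23 to 0.61 for the miR-27a arms, -0.46 to 0.58 for the miR-23b arms, -0.13 to 0.0867 for miR-27b-3p to miR-27a-3p and -0.73 to 0.46 for miR-27b-5p to miR-27a-5p. That of miR-23b-3p to miR-23a-3p stayed between 0.23 and 0.38. Those of miR-24-1-5p to miR-24-2-5p (0.41 to 1.27) and of the miR-27b arms (0.0122 to 0.77) kept their sign. With the most abundant miRNA left out of the total, the difference in the share of seed UCACAGU was -0.191 percentage points. Without 1 library it ranged from -0.167 to -0.0600, and without normal replicate 2 the differences in share of miR-24-3p, of both miR-24 5p products together and of miR-27a-5p turned to 0.000123, 0.000996 and 3.96e-05. The miR-23b arms rest on 0 or 1 reads of the 5p product, so the pseudocount sets their values. Depth limits the 4 members with under 10 reads in some library.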

Other observations

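Other marker lists gave these values, without a test of the lists. In limma 0 of their members had an adjusted p under 0.05. The 4 smooth muscle and peritubular miRNAs (miR-143 and miR-145, both arms) summed to 85959 to 96015 CPM in diabetic and 79267 to 97409 CPM in normal libraries, with 2 higher and 2 lower. The 4 red cell miRNAs summed to 544 to 782 and 678 to 741 CPM, with 1 higher and 3 lower. The 4 white blood cell miRNAs summed to 495 to 652 and 592 to 762 CPM, with 1 higher and 3 lower, and miR-142-3p was at 339 ± 31.2 and 465 ± 64.8 CPM (SD, n = 3 each; limma adjusted p = 0.348). The 3 skeletal and heart muscle miRNAs summed to 27.2 to 58.9 and 18.8 to 28.5 CPM, with 2 higher and 1 lower. The 5 germ-cell miRNAs tested had a median log2 change of -0.04, 2 higher and 3 lower. Their part in the values of miR-23, miR-24 and miR-27 was not tested.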
